A study of Mus musculus with 40 samples.

Results

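Trav6-3, Trav6-4 and Trav6-5 are 3 subgroups of the mouse T cell receptor alpha V segment family Trav6, and each is present in more than one copy. The members described here are every listed Trav row whose name is Trav6, with or without the suffix D or N, followed by -3, -4 or -5. That gave 7 segments (Trav6d-3, Trav6-3, Trav6d-4, Trav6-4, Trav6d-5, Trav6n-5 and Trav6-5) of the 106 Trav segments listed in both replicate numbers. The suffix D or N marks an additional copy, and the name without a suffix is called the original copy below.

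The T cell receptor alpha chain is made in CD4+CD8+ thymocytes by joining one Trav segment to one Traj segment within the Tcra locus. The Trav segment encodes most of the variable domain, including the loops CDR1 and CDR2, and the junction with Traj forms CDR3. Early joins tend to use Trav segments near the J array with Traj segments at its 5′ end, and later rounds on the same chromosome replace them with Trav segments farther upstream and Traj segments farther downstream. A segment with several copies spread over the V array can therefore be used at different stages of this progression.

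The study compared thymus of EACBE-/- mice with thymus of EACBE+/+ mice, EACBE being the binding site of the chromatin-looping protein CTCF beside the Tcra enhancer Ea. Both groups were C57BL/6 mice, labelled as 4 to 8 weeks old, and 5′ RACE, which needs no V-specific primer, was used to copy receptor transcripts from total thymus RNA. Counts per pair of Trav and Traj segment were available for 2 libraries per genotype. In this text the value of replicate 1 is given before that of replicate 2 within each genotype. Nothing in the labels says that the libraries came from separate mice, so p-values measure the spread between these libraries, which may be technical. No marker gene is in the tables, so neither the cell type nor the genotype can be checked from them.

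Total Tcra counts were 19085 and 163953 in the EACBE-/- libraries and 10694 and 172388 in the EACBE+/+ libraries, so replicate 2 was the deeper one in both genotypes. The 7 segments had 400 and 5810 counts in EACBE-/- and 184 and 5219 in EACBE+/+. Of the 301 possible pairs of a member with one of the 43 listed Traj segments, 152 and 283 were seen in EACBE-/- and 107 and 296 in EACBE+/+. Taking 3 counts as the limit that a count of 0 allows, a Traj segment with no count could still hold up to 0.75% and 0.0516% of the members' joins in EACBE-/-, and up to 1.63% and 0.0575% in EACBE+/+. These limits and the 95% Wilson intervals below cover counting error only, because the sources used here do not say whether reads or distinct receptors were counted.

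The 7 segments lie within 766 kb of chromosome 14 (GRCm38.p6) and fall into 3 stretches of the V array. Trav6d-3 (chr14:52725308-52726919), Trav6d-4 (chr14:52753398-52753846) and Trav6d-5 (chr14:52795165-52795633) stand at places 9, 11 and 15 of the 106 listed segments, counted from the end farthest from the J array. They are 1430, 1403 and 1362 kb from Traj58, the first listed Traj segment. Trav6n-5 (chr14:53104871-53105344) stands at place 43, at 1052 kb. The original copies Trav6-3 (chr14:53428761-53430377), Trav6-4 (chr14:53454327-53454784) and Trav6-5 (chr14:53491152-53491622) stand at places 71, 73 and 77, at 727, 702 and 666 kb. The D copies are thus the most distal of the members and the original copies the closest to the J array. Trav6d-3 and Trav6d-4 alternate with copies of the Trav7 family, as Trav6-3 and Trav6-4 do in their own stretch. Coordinates are those of the whole gene, and exons and introns were not used here.

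Use of the members was compared first, as a share of all Tcra counts. No member changed past an adjusted p of 0.05. Together the 7 segments took 2.10% and 3.54% of Tcra counts in the EACBE-/- libraries and 1.72% and 3.03% in the EACBE+/+ libraries. The libraries of the genotypes overlapped, and replicate 2 was the higher one in each. The means were 2.82% ± 1.02 in EACBE-/- and 2.37% ± 0.924 in EACBE+/+ (SD, n = 2 each), a difference of 0.446 points that was smaller than the spread between replicates (two-sided exact permutation p = 0.667). For 2 libraries against 2, p = 0.333 is the smallest value an exact permutation test can give. The difference was -0.278 points without EACBE-/- replicate 2, -0.208 without EACBE+/+ replicate 1 and 1.17 without EACBE-/- replicate 1.

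Trav6-5 was the most used member in every library and Trav6-4 or Trav6d-4 the least used. Trav6-5 took 0.828% and 1.33% of Tcra counts in EACBE-/-, against 0.767% and 1.19% in EACBE+/+, and the libraries overlapped. Its copy Trav6n-5 took 0.299% and 0.438% in EACBE-/-, against 0.215% and 0.347% in EACBE+/+, and these overlapped as well. In mean share Trav6-5 was followed in EACBE-/- by Trav6d-5, Trav6n-5, Trav6d-3, Trav6-3, Trav6d-4 and Trav6-4. In EACBE+/+ it was followed by Trav6-3, Trav6d-5, Trav6n-5, Trav6d-3, Trav6-4 and Trav6d-4. Apart from Trav6-5, neighbours in either order differed by less than the larger of their SDs, except Trav6d-5 and Trav6n-5 in EACBE-/-.

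Trav6d-5, the D copy of the Trav6-5 subgroup, showed the largest difference among the members. It took 0.503% and 0.716% of Tcra counts in EACBE-/-, against 0.224% and 0.343% in EACBE+/+. Both EACBE-/- libraries were above both EACBE+/+ libraries. The mean share was 2.15-fold higher in EACBE-/- (0.610% ± 0.151 against 0.284% ± 0.0837, SD, n = 2 each). The log2 change was 1.09 (SE 0.441, adjusted p = 0.284 in edgeR's quasi-likelihood test with Benjamini-Hochberg adjustment over all 106 segments), which did not pass. Over all alternatives its adjusted p lay between 0.00452 and 0.702.

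Trav6d-4 was the other member whose libraries did not overlap. It took 0.152% and 0.216% in EACBE-/-, against 0.0842% and 0.147% in EACBE+/+, with a log2 change of 0.64 (SE 0.788, adjusted p = 0.724 in edgeR). In replicate 1 these shares rest on 29 counts in EACBE-/- and 9 in EACBE+/+. The remaining members overlapped. Trav6d-3 took 0.141% and 0.350% in EACBE-/- and 0.150% and 0.263% in EACBE+/+. Trav6-3 took 0.121% and 0.307% in EACBE-/- and 0.196% and 0.495% in EACBE+/+, and Trav6-4 took 0.0524% and 0.190% in EACBE-/- and 0.0842% and 0.247% in EACBE+/+. For both of these original copies each EACBE-/- library was below the EACBE+/+ library of the same number.

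Of the 7 members 0 were called, against 6 of all 106 Trav segments (5.66%, all lower in EACBE-/-). At an unadjusted p below 0.05 in edgeR, 1 member stood out (Trav6d-5), against 17% of all segments, and DESeq2 called 0 members. Libraries did not overlap for 2 of 7 members, both higher in EACBE-/-. Of all segments 50% did not overlap, and 25.5% did not overlap and were higher. The median log2 change was 0.24 over the 7 members and -0.13 over all 106 segments.

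**Figure D1:**
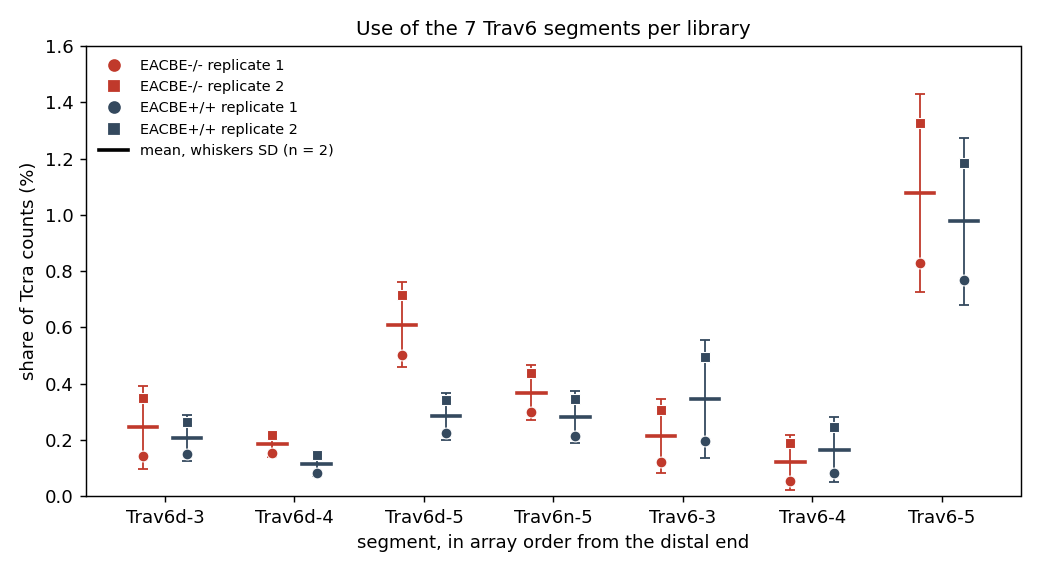
Share of Tcra counts (%) taken by each of the 7 Trav6 segments, in array order from the distal end on the left. Points are libraries (circles replicate 1, squares replicate 2), bars are means and whiskers SD (n = 2), with EACBE-/- in red on the left of each pair and EACBE+/+ in dark blue on the right. Trav6d-5 and Trav6d-4 are the segments whose libraries do not overlap between genotypes.

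The D copies were compared with the other copies of the same subgroup next, since a share within a subgroup does not depend on how often the subgroup is used. In each subgroup the D copy took a larger share in both EACBE-/- libraries than in both EACBE+/+ libraries. Within Trav6-5, Trav6d-5 took 30.9% and 28.9% in EACBE-/-, against 18.6% and 18.3% in EACBE+/+. The 2 genotypes stood apart by more than 10 points, while replicates of a genotype differed by 2 points or less. The log2 change of the D-copy share was 0.70 (SE 0.209, adjusted p = 0.625 in edgeR over the 34 subgroups with a D copy). Within Trav6-3, Trav6d-3 took 54.0% and 53.2% in EACBE-/-, against 43.2% and 34.7% in EACBE+/+ (log2 change 0.48, SE 0.301, adjusted p = 0.941 in edgeR). Within Trav6-4, Trav6d-4 took 74.4% and 53.2% in EACBE-/-, against 50.0% and 37.3% in EACBE+/+ (log2 change 0.57, SE 0.485, adjusted p = 0.941 in edgeR). The replicate 1 values of Trav6-3 and Trav6-4 rest on 50 and 39 counts in EACBE-/- and on 37 and 18 in EACBE+/+.

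All 3 subgroups did not overlap and were higher, as were 8 of the 34 subgroups with a D copy (23.5%), these 3 included. None of the 34 was called by edgeR, and 2 of 34 (5.88%) had an unadjusted p below 0.05. In the 31 other subgroups with a D copy, as 1 pool, D copies held 38.6% and 29.9% in EACBE-/- and 37.2% and 31.4% in EACBE+/+, and these overlapped. The N copy gave a different picture. Trav6n-5 held 18.3% and 17.7% of Trav6-5 counts in EACBE-/- and 17.8% and 18.5% in EACBE+/+, and the means were within 1 SD of each other (two-sided exact permutation p = 0.667).

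Over the 7 segments together, D copies made up 38.0% and 36.2% of counts in EACBE-/-, against 26.6% and 24.9% in EACBE+/+. The 95% Wilson intervals were 33.4 to 42.8% and 35.0 to 37.4% in EACBE-/-, and 20.8 to 33.4% and 23.7 to 26.1% in EACBE+/+. Original copies made up 47.8% and 51.5% in EACBE-/-, against 60.9% and 63.7% in EACBE+/+, and did not overlap either. Both differences had the smallest p the exact permutation test can give, 0.333. As shares of all Tcra counts, the D copies took 0.796% and 1.28% in EACBE-/-, against 0.458% and 0.753% in EACBE+/+. The original copies took 1.00% and 1.82% in EACBE-/-, against 1.05% and 1.93% in EACBE+/+, and these overlapped. Values of single copies are uncertain, since the assignment of reads that match several copies was not given in the sources used here.

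With copies summed, no subgroup changed. The log2 change was -0.28 for Trav6-3 (adjusted p = 0.751), 0.07 for Trav6-4 (adjusted p = 0.947) and 0.40 for Trav6-5 (adjusted p = 0.383), all in edgeR with adjustment over 47 subgroups. None of the 3 had an unadjusted p below 0.05 and DESeq2 called 0, while edgeR called 12 of 47 subgroups (25.5%). The directions of Trav6-3 and Trav6-4 turned with the library left out.

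**Figure D2:**
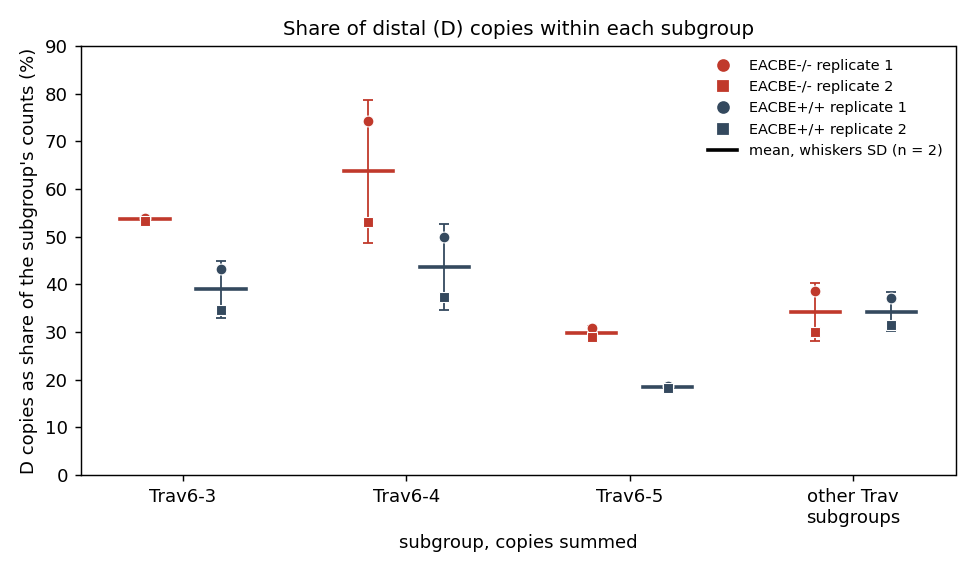
D copies as a share (%) of the counts of their subgroup, for Trav6-3, Trav6-4, Trav6-5 and the 31 other subgroups with a D copy, pooled. Points are libraries, bars means and whiskers SD (n = 2), EACBE-/- in red on the left and EACBE+/+ in dark blue on the right of each pair. In the 3 Trav6 subgroups both red points lie above both blue points, and in the other subgroups they overlap.

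The Traj segments joined to the 7 segments were then set against those joined to the other Trav segments of the same libraries, whatever the genotype. For this, Traj segments were grouped as 5′ (Traj61 to Traj42), middle (Traj41 to Traj22) and 3′ (Traj21 to Traj1). Pooled over copies, the members used the 5′ end of the J array less than all other Trav segments pooled. In edgeR's quasi-likelihood test with the library as a block, 17 of 43 Traj segments (39.5%) differed at an adjusted p below 0.05, with 9 lower and 8 higher in joins of the members. Of the 9 lower ones, 8 are in the 5′ list of 13. The other is Traj40 in the middle list. Of the 8 higher ones, 4 are in the middle list of 16 and 4 in the 3′ list of 14.

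Traj58, the listed Traj segment closest to the V array, was the most depleted. It took 0.75% and 0.826% of the members' joins in EACBE-/- and 0.543% and 1.23% in EACBE+/+. In joins of other Trav segments it took 1.80% and 2.72% in EACBE-/- and 1.79% and 2.78% in EACBE+/+. The members were lower in each of the 4 libraries, with a log2 difference of -1.43 (SE 0.151, adjusted p = 6.53e-15 in edgeR). The difference was -1.03 for Traj57, -0.76 for Traj56, -0.88 for Traj53, -0.48 for Traj52, -0.44 for Traj50, -0.59 for Traj49 and -0.58 for Traj48. Along the remaining 5′ segments, from Traj47 to Traj42, no difference passed.

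Traj17 and Traj22 were the segments most enriched in the members' joins. Traj17, in the 3′ list, took 4.00% and 4.35% of them in EACBE-/- and 3.26% and 3.66% in EACBE+/+. Other Trav segments joined it in 2.02% and 2.53% of counts in EACBE-/- and 2.45% and 2.71% in EACBE+/+, so that the members were higher in all 4 libraries (log2 difference 0.63, SE 0.104, adjusted p = 9.24e-08 in edgeR). Traj22 had a log2 difference of 0.59 (SE 0.0955, adjusted p = 8.27e-08 in edgeR) and was likewise higher in all 4 libraries. The others were Traj9 (0.44), Traj31 (0.42), Traj12 (0.39), Traj23 (0.34), Traj15 (0.31) and Traj27 (0.28), as log2 differences. The count of differing segments was 9 without EACBE-/- replicate 2 and 17 to 20 without any other single library.

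**Figure D3:**
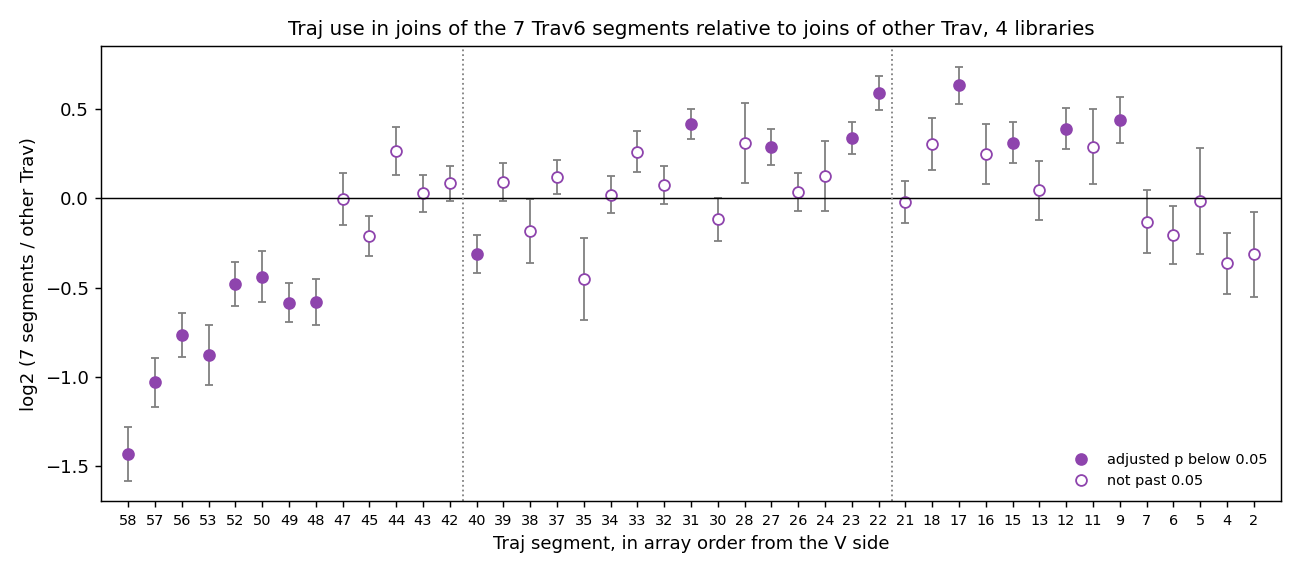
Log2 ratio of Traj use in joins of the 7 Trav6 segments over joins of other Trav segments, fitted over 4 libraries with the library as a block. Points are fitted values and whiskers SE, filled where the adjusted p is below 0.05, with Traj segments in array order and dotted lines between the 5′, middle and 3′ lists. From Traj58 to Traj48 all points lie below 0, at -1.43 to -0.44.

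The next comparison asked which Traj segments moved with genotype within the joins of the 7 segments. Segments at the far end of the J array fell in EACBE-/-. Of 43 Traj segments tested, 5 fell and 0 rose at an adjusted p below 0.05 in edgeR (11.6%), and all 5 (Traj2, Traj4, Traj5, Traj7 and Traj9) are in the 3′ list. An unadjusted p below 0.05 was reached by 12 (27.9%). In the 3′ list, 5 of 14 fell and 9 did not pass, with a median log2 change of -0.85. In the middle list 0 of 16 passed, with a median of 0.31, and in the 5′ list 0 of 13, with a median of 0.11. Over all 43 the median was 0.13. Shares of joins have a fixed total, so lower 3′ shares raise the others.

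Traj2, the last listed segment, was nearly absent from the members' joins in EACBE-/-. It had 0 and 3 counts there, or 0% and 0.0516% of the members' joins, against 1 and 91 counts, or 0.543% and 1.74%, in EACBE+/+. Both EACBE-/- libraries were below both EACBE+/+ libraries, though the 0 of EACBE-/- replicate 1 allows a share up to 0.75%, which is above that of EACBE+/+ replicate 1. Pooled over the libraries of a genotype, the share was 0.0284 times that in EACBE+/+ (95% exact interval 0.00575 to 0.0855, counting error only). The fitted log2 change was -4.98 (SE 0.693, adjusted p = 0.000186 in edgeR) and depends on a prior count. By member, all 3 EACBE-/- counts belonged to Trav6-5 (2) and Trav6d-3 (1). In EACBE+/+ replicate 2 every member had Traj2 joins, between 4 for Trav6d-4 and 23 for Trav6-3.

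Traj4 took 0.25% and 0.344% of the members' joins in EACBE-/-, against 3.80% and 2.36% in EACBE+/+. These are 1 and 20 counts in EACBE-/- and 7 and 123 in EACBE+/+, and the libraries did not overlap. The mean share was 10.4-fold lower in EACBE-/-, with a log2 change of -2.87 (SE 0.424, adjusted p = 0.000186 in edgeR). Traj4 and Traj2 met the count filter through the EACBE+/+ libraries alone, where they were high. The filter removed no Traj segment here, and the fit without it tested the same 43 segments and again called 5. In replicate 2, Trav6-3, Trav6d-4 and Trav6-4 had 0 counts with Traj4 in EACBE-/-, against 19, 6 and 7 in EACBE+/+. Trav6d-5, Trav6n-5 and Trav6-5 had 4, 7 and 8 in EACBE-/-, against 24, 24 and 32 in EACBE+/+, and Trav6d-3 had 1 against 11. The counts of 0 allow up to 0.595%, 0.847% and 0.962% of the joins of those members. The 4, 7 and 8 counts are 0.341%, 0.975% and 0.368% of the joins of theirs. A difference between members was therefore not shown.

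Traj9 took 0.50% and 1.67% in EACBE-/-, against 3.26% and 3.79% in EACBE+/+ (log2 change -1.29, SE 0.279, adjusted p = 0.00549 in edgeR). Traj5 took 0.50% and 0.172% in EACBE-/-, against 2.17% and 0.996% in EACBE+/+ (log2 change -2.42, SE 0.594, adjusted p = 0.0122 in edgeR). Traj7 took 0.75% and 0.740% in EACBE-/-, against 1.63% and 1.82% in EACBE+/+ (log2 change -1.28, SE 0.378, adjusted p = 0.0381 in edgeR). None of these overlapped between genotypes, as was the case for 19 of the 43 segments (44.2%), 11 of them higher and 8 lower. In replicate 1 the shares of Traj9, Traj5 and Traj7 rest on 2, 2 and 3 counts in EACBE-/- and on 6, 4 and 3 in EACBE+/+.

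The Traj segments most used by the members in EACBE+/+ did not pass. Traj31 took 9.25% and 6.33% in EACBE-/-, against 7.61% and 5.44% in EACBE+/+, and overlapped (log2 change 0.30, adjusted p = 0.525 in edgeR). Traj22 took 4.25% and 4.42% in EACBE-/-, against 7.07% and 4.48% in EACBE+/+ (log2 change -0.12, adjusted p = 0.726 in edgeR). Traj26 took 3.25% and 2.86% in EACBE-/-, against 5.98% and 3.26% in EACBE+/+ (log2 change -0.27, adjusted p = 0.525 in edgeR). For Traj22 and Traj26 the high value is that of EACBE+/+ replicate 1, the shallowest library.

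The 5 calls lean on the deep libraries. Without EACBE-/- replicate 2 there were 0 calls among 23 segments tested, and without EACBE+/+ replicate 2 there was 1 (Traj4) among 24. Without EACBE-/- replicate 1 there were 8 and without EACBE+/+ replicate 1 there were 6. DESeq2 called only Traj4 and TMM scaling gave 8. Traj9 took its lowest log2 change, -2.90, without EACBE-/- replicate 2.

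In joins of all other Trav segments the same 5 Traj segments had log2 changes of -2.67 (Traj2), -2.13 (Traj4), -1.94 (Traj5), -1.16 (Traj9) and -1.13 (Traj7), all past the threshold there, where 12 of 43 Traj segments (27.9%) were called. The difference between the members and the other Trav segments in the genotype change of a Traj segment was tested as an interaction. None of 43 segments passed in edgeR and 4 (9.3%) had an unadjusted p below 0.05. The log2 interaction was -2.08 for Traj2 (SE 0.776, adjusted p = 0.249 in edgeR) and -0.55 for Traj4 (SE 0.366, adjusted p = 0.422 in edgeR). A difference in the response of the members was thus not shown at this depth.

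**Figure D4:**
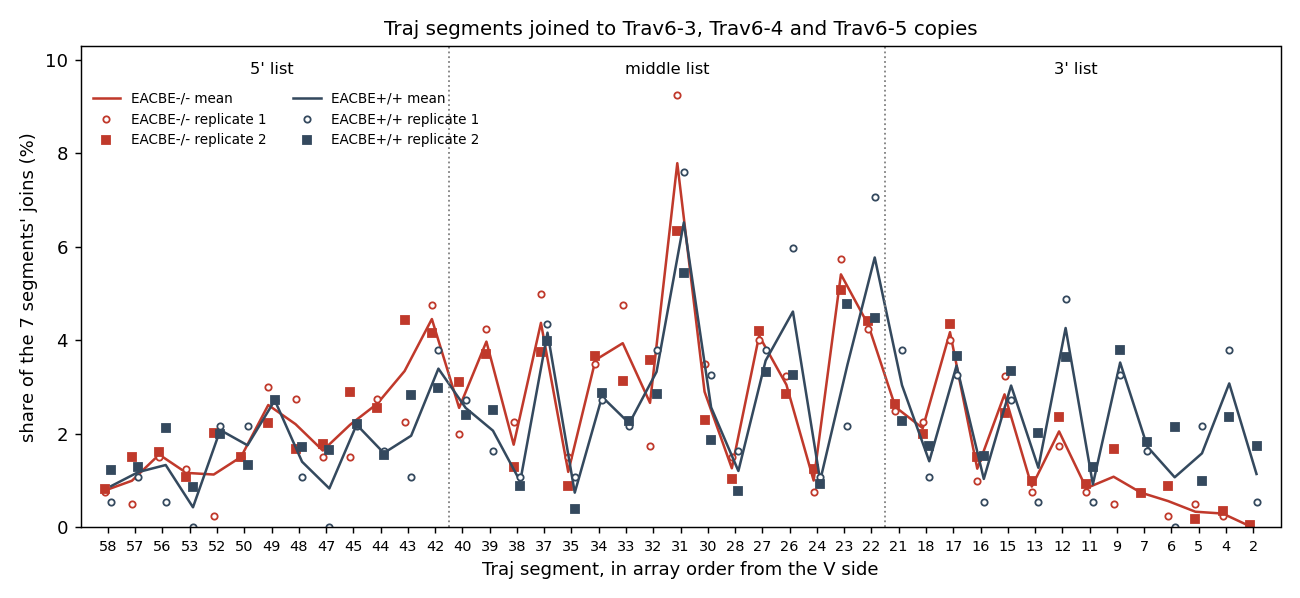
Share (%) of the joins of the 7 Trav6 segments that used each Traj segment, in array order from the V side, with dotted lines between the 5′, middle and 3′ lists. Red is EACBE-/- and dark blue EACBE+/+, with open circles for replicate 1, filled squares for replicate 2 and lines for the mean of 2 libraries. Traj31 is the highest point in both genotypes, and from Traj9 to Traj2 the red line runs below the blue one.

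Summed over the 3′ list, Traj21 to Traj2 took 18.5% and 21.1% of the members' joins in EACBE-/-, against 28.8% and 32.4% in EACBE+/+. The libraries did not overlap. The 95% Wilson interval in EACBE-/- was 15.0 to 22.6% in replicate 1 and 20.1 to 22.2% in replicate 2. In EACBE+/+ it was 22.7 to 35.7% in replicate 1 and 31.1 to 33.7% in replicate 2. The means were 19.8% ± 1.84 in EACBE-/- and 30.6% ± 2.53 in EACBE+/+ (SD, n = 2 each), a difference of -10.8 points (two-sided exact permutation p = 0.333, the smallest possible). Leaving out any 1 library gave -12.6 to -9.00 points. With each pair of segments counted once the difference was -5.67 points. The 5′ list took 24.3% and 28.3% in EACBE-/- and 19.0% and 24.5% in EACBE+/+, which overlapped narrowly (difference 4.49 points, two-sided exact permutation p = 0.667). The middle list took 57.3% and 50.6% in EACBE-/- and 52.2% and 43.1% in EACBE+/+, and overlapped too.

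In other Trav segments 3′ Traj segments took 14.5% and 16.99% of joins in EACBE-/-, against 23.9% and 30.1% in EACBE+/+. Within each library the members exceeded them, by 3.99 and 4.11 points in EACBE-/- and by 4.91 and 2.26 points in EACBE+/+. This excess did not differ between the genotypes beyond its spread (difference 0.463 points, two-sided exact permutation p = 1). It was -0.863 points without EACBE+/+ replicate 2. With each pair of segments counted once it was -2.79 points (two-sided exact permutation p = 0.333, the smallest possible). In the 5′ list the members were below the other Trav segments by 11.9 and 9.75 points in EACBE-/- and by 10.5 and 6.27 points in EACBE+/+. This was seen in every library for the pooled segments but not for each kind of copy. Of the joins of the members' D copies, 24.3% and 23.4% used 5′ Traj segments in EACBE-/- and 26.5% and 21.3% in EACBE+/+. For the D copies of other Trav segments this 5′ share was 27.1% and 27.2% in EACBE-/- and 18.2% and 20.4% in EACBE+/+. The members' D copies were thus lower in EACBE-/-, but beyond counting error in replicate 2 only. Their Wilson interval there was 21.6 to 25.2%, against 18.2 to 31.7% in replicate 1. In EACBE+/+ they were slightly higher by value, with intervals that contain the values of the other D copies. These were 16.2 to 40.3% in replicate 1 (13 of 49 counts) and 19.2 to 23.7% in replicate 2. A turn of direction between the genotypes was therefore not shown. For the members' N copy the 5′ share was 14.04% and 27.6% in EACBE-/- and 13.0% and 21.6% in EACBE+/+. For other N copies it was 33.4% and 32.9% in EACBE-/- and 19.6% and 20.5% in EACBE+/+, and the members' N copy was lower in 3 of 4 libraries. For the members' original copies the 5′ share was 27.2% and 31.9% in EACBE-/- and 16.96% and 26.3% in EACBE+/+. This was below the other original copies in every library (43.6% and 44.5% in EACBE-/-, 39.2% and 39.0% in EACBE+/+). The other original copies are all other Trav segments named without a suffix, and some belong to subgroups with no D copy. The pools are therefore not matched in kind.

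Measured as distance along the array, the Traj segments joined to the members lay on average 29.4 and 29.2 kb from Traj58 in EACBE-/-, against 33.3 and 32.5 kb in EACBE+/+. Those joined to other Trav segments lay 25.9 and 25.8 kb from it in EACBE-/-, against 29.2 and 30.3 kb in EACBE+/+. The genotypes did not overlap in either group of joins, and the members were farther along in every library. The effective number of Traj segments, an inverse Simpson index corrected for depth, was 28.3 and 31.3 for the members in EACBE-/-, against 31.6 and 35.0 in EACBE+/+ (two-sided exact permutation p = 0.333). For other Trav segments it was 32.7 and 34.1 in EACBE-/-, against 35.0 and 38.1 in EACBE+/+.

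By copy, 3′ Traj segments were used most by the D and N copies in EACBE+/+. The D copies joined them in 21.7% and 22.7% of counts in EACBE-/-, against 40.8% and 37.2% in EACBE+/+. The N copy did so in 22.8% and 24.9% in EACBE-/-, against 39.1% and 41.1% in EACBE+/+. The original copies did so in 14.7% and 19.0% in EACBE-/-, against 21.4% and 28.9% in EACBE+/+. None of the 3 kinds of copy overlapped between genotypes. Within each library the D copies exceeded the original copies, by 7.05 and 3.71 points in EACBE-/- and by 19.4 and 8.29 points in EACBE+/+. This gap was narrower in both EACBE-/- libraries than in both EACBE+/+ libraries (difference -8.46 points, two-sided exact permutation p = 0.333, the smallest possible). The gap between N and original copies was 8.15 and 5.90 points in EACBE-/-, against 17.7 and 12.2 points in EACBE+/+. With the array split at Traj32 instead, the pooled D-copy gap overlapped (3.55 and 8.71 points in EACBE-/-, -0.128 and 3.92 in EACBE+/+). Its mean was then larger in EACBE-/- (6.13 points) than in EACBE+/+ (1.89 points). The N-copy gap overlapped as well with that split (9.91 and 7.48 points in EACBE-/-, 14.9 and 6.47 in EACBE+/+).

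In other Trav segments the D and N copies also exceeded the original copies in every library. Their D copies joined 3′ Traj segments in 19.3% and 23.6% of counts in EACBE-/-, against 34.7% and 42.05% in EACBE+/+. Their N copies did so in 17.3% and 21.01% in EACBE-/-, against 36.1% and 42.6% in EACBE+/+. Their original copies did so in 10.2% and 12.9% in EACBE-/-, against 13.9% and 20.5% in EACBE+/+. The original copies of the members were thus above the original copies of other Trav segments in all 4 libraries, and the D copies of the members were above those of the others in 2 of 4. Among the original copies of other Trav segments are names without a suffix whose subgroup has no D copy, so these pools are not matched in kind.

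In the fit of the 3′ share of each Trav segment, Trav6d-3, Trav6d-4 and Trav6n-5 fell and the other 4 members did not pass. Percentages here and in the next paragraph are the share of a segment's own joins that used 3′ Traj segments. Trav6d-3 held a 3′ share of 14.8% and 23.7% in EACBE-/-, against 43.8% and 39.4% in EACBE+/+ (log2 change -0.84, SE 0.303, adjusted p = 0.0237 in edgeR). Trav6d-4 held 24.1% and 19.2% in EACBE-/-, against 44.4% and 38.7% in EACBE+/+ (log2 change -0.97, SE 0.358, adjusted p = 0.0262 in edgeR). Trav6n-5 held 22.8% and 24.9% in EACBE-/-, against 39.1% and 41.1% in EACBE+/+ (log2 change -0.74, SE 0.290, adjusted p = 0.0370 in edgeR). In each of these 3 both EACBE-/- libraries were below both EACBE+/+ libraries.

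Trav6d-5 held a 3′ share of 22.9% and 23.3% in EACBE-/-, against 37.5% and 34.9% in EACBE+/+, without overlap (log2 change -0.61, adjusted p = 0.0910 in edgeR). Trav6-5 held 12.7% and 17.9% in EACBE-/-, against 20.7% and 25.7% in EACBE+/+, without overlap (log2 change -0.58, adjusted p = 0.128 in edgeR). It had the lowest 3′ share of the members in EACBE+/+ replicate 2. Trav6-3 held 34.8% and 22.4% in EACBE-/- and 28.6% and 34.8% in EACBE+/+, which overlapped (log2 change -0.49, adjusted p = 0.157 in edgeR). Trav6-4 held 0% and 21.2% in EACBE-/- and 11.1% and 32.4% in EACBE+/+, which also overlapped (log2 change -0.65, adjusted p = 0.113 in edgeR). Its 0% is 0 of 10 counts, which allows up to 30%.

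The 3 calls among 7 members compare with 36 of 103 Trav segments (35%), all lower in EACBE-/-. Libraries did not overlap for 5 of 7 members, all lower, and for 68% of all segments in that direction. The median log2 change was -0.65 over the members and -0.68 over all 103 segments. The calls of the members were all lost whichever library was left out, when 0 to 4 of all Trav segments passed. With no count filter 2 members were called, Trav6d-3 and Trav6d-4, and Trav6n-5 did not pass (adjusted p = 0.0555 in edgeR). With the array split at Traj32 the 2 members called were Trav6n-5 (log2 change -0.23, adjusted p = 0.0476 in edgeR) and Trav6-5 (log2 change -0.29, adjusted p = 0.0244 in edgeR). Neither Trav6d-3 nor Trav6d-4 passed with that split, at log2 changes of -0.05 and -0.06.

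**Figure D5:**
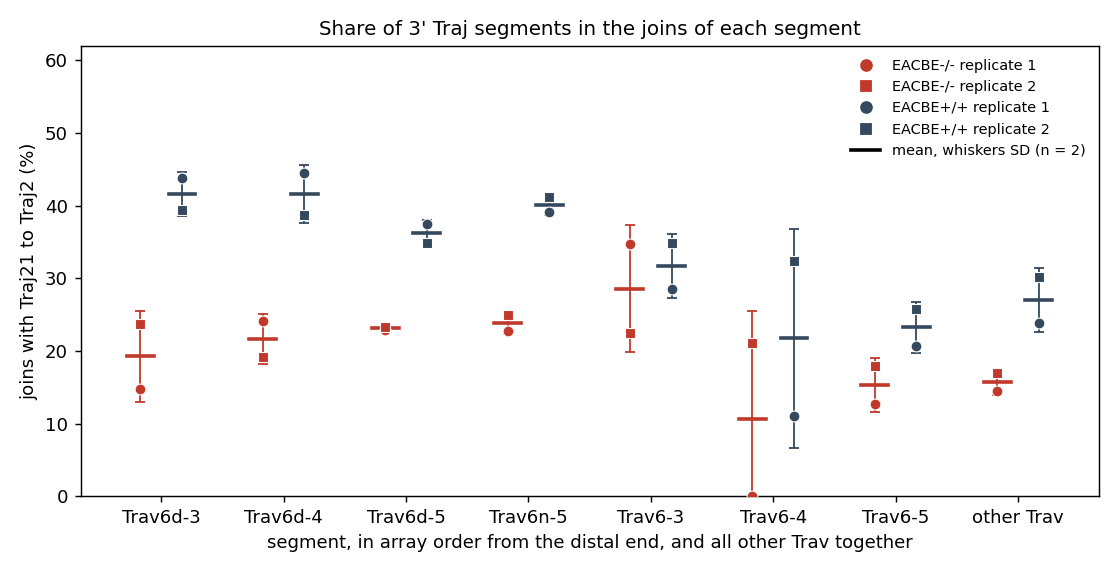
Share (%) of joins with Traj21 to Traj2 for each of the 7 Trav6 segments, in array order from the distal end, and for all other Trav segments together. Points are libraries, bars means and whiskers SD (n = 2, drawn down to 0 at the lowest), EACBE-/- in red on the left and EACBE+/+ in dark blue on the right of each pair. Trav6-3 and Trav6-4, with at most 23 counts in each replicate 1 library, are the members that overlap. The other members had between 9 (Trav6d-4) and 158 (Trav6-5) counts in a replicate 1 library.

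Single pairs were tested last. Of the 93 pairs of one member with one Traj segment that had enough counts, 0 were called by edgeR, against 81 of 2417 pairs in the whole table (3.35%). DESeq2 called 0 of them and 6 had an unadjusted p below 0.05 in edgeR (17.4% over all pairs). All 6 involved Trav6d-5 and were higher in EACBE-/-. Pairs were scaled to all Tcra counts, so they also rise with the use of Trav6d-5, whose mean share was 2.15-fold higher in EACBE-/-. A change in its Traj use was not separated from that. Trav6d-5 with Traj43 had the lowest adjusted p among them, with 3 and 52 counts in EACBE-/- and 0 and 9 in EACBE+/+ (log2 change 2.48, adjusted p = 0.111 in edgeR). That pair met the count filter through the EACBE-/- libraries alone, where it was high. So did Trav6d-5 with Traj32 and Trav6d-5 with Traj33, which are also among the 6. The shared direction of the 6 was therefore partly set by the filter.

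With copies summed, 2 of 76 pairs were called, against 270 of 1460 in the table (18.5%), and both were lower (14.5% of all). Trav6-5 with Traj4 had 1 and 19 counts in EACBE-/- and 4 and 80 in EACBE+/+ (log2 change -2.07, SE 0.550, adjusted p = 0.00712 in edgeR). Trav6-5 with Traj5 had 1 and 6 counts in EACBE-/- and 3 and 30 in EACBE+/+ (log2 change -2.23, SE 0.687, adjusted p = 0.0200 in edgeR). It met the count filter through the EACBE+/+ libraries alone. In DESeq2 the adjusted p was 0.362 for Trav6-5 with Traj4 and 0.485 for Trav6-5 with Traj5, and neither passed. Without either replicate 2 library no pair was called, while 6 were called without EACBE-/- replicate 1 and 5 without EACBE+/+ replicate 1.

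Taking the mean distance over the 4 libraries, the J profile of the members was most like that of Trav6-6, another Trav6 subgroup, followed by Trav7-4 and Trav3-3. Likeness was taken as the sum of absolute differences in Traj shares divided by 2, so that 0% means equal profiles, over 30 subgroups with at least 100 counts in each of the 4 libraries. The distance to Trav6-6 was 17.5% and 9.91% in EACBE-/- and 20.3% and 6.23% in EACBE+/+, with a mean of 13.5%. For Trav7-4 it was 13.9% and 12.2% in EACBE-/- and 20.1% and 9.60% in EACBE+/+, with a mean of 13.97%. For Trav3-3 it was 17.02% and 12.3% in EACBE-/- and 19.9% and 10.9% in EACBE+/+, with a mean of 15.0%. Trav6-6 was nearest in both replicate 2 libraries. In both replicate 1 libraries Trav7-4 and Trav3-3 were nearer than Trav6-6, and Trav13-2 was the nearest in EACBE+/+ replicate 1 (18.6%). The shallow library of each genotype gave the larger distance for these 3 subgroups. Copies of Trav6-6 and Trav6-7 as a group had a smaller 3′ share of their own joins than the members in every library, at 12.6% and 15.5% in EACBE-/- and 22.2% and 27.2% in EACBE+/+. Copies of Trav7-2 to Trav7-4, which neighbour the members in the array, had a larger 3′ share than the members in every library, at 21.1% and 24.9% in EACBE-/- and 30.9% and 38.1% in EACBE+/+. Their 5′ share was smaller than that of the members in every library, at 19.0% and 17.5% in EACBE-/- and 14.9% and 16.4% in EACBE+/+.

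The stretch of chromosome 14 that holds the 7 segments was also looked up in the lists of insulation boundaries, places where Hi-C contacts across a point are few. The lists are from Rag1-/- mice, which cannot rearrange Tcra and were given anti-CD3, with 1 library for EACBE-/- and 1 for EACBE+/+, so there is no replicate check. No boundary lay between the first and the last member in either list. The nearest one on the distal side was at chr14:52620001-52640000 in both, with the authors' score of 0.337 in EACBE-/- and 0.633 in EACBE+/+. The nearest one toward the J array was at chr14:53700001-53720000 in EACBE-/- (score 0.517) and at chr14:53680001-53700000 in EACBE+/+ (score 0.588), which is the neighbouring 20 kb bin.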

How the data were processed

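Per the labels' protocols, thymus RNA was reverse transcribed with oligo(dT) and an adapter was added by template switching. The authors deposited 1 table of counts per library, with V segments in rows and J segments in columns. The submitters' processing notes name mm10, Bowtie2, Juicer 1.13.02, bedtools 2.26.0 and HiC-Pro 2.11.1 for the series, without saying which step used which. The counting steps and the assignment of reads that match several copies were not given in the sources used here. Boundary lists, as deposited, give a score per 20000-base bin, used only to describe boundaries. Gene coordinates are RefSeq's (GRCm38.p6).

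The members, lists and tests were chosen with earlier results of these data known. Table totals (10694 to 172388) served as library sizes. Counts were fitted with edgeR 4.0.16 (glmQLFit, glmQLFTest, no TMM factors, filterByExpr with a minimum count of 10 and a minimum total of 15) in R 4.3.3, over all segments or pairs listed in both replicate numbers, with Benjamini-Hochberg adjustment and a threshold of 0.05. Traj use within the members' joins was fitted with the members' own total as library size, 3′ and D-copy shares with the segment's or subgroup's own total as offset, and members against other Trav segments with the library as a block. The SE is the absolute log2 change divided by the square root of the F statistic. A two-sided exact permutation test (scipy 1.17.1) was used for single values. Members were all named. Traj segments were named where called, together with the 3 most used in EACBE+/+, and pairs where called. The pairs of Trav6d-5 with Traj43, Traj32 and Traj33 were named after their values were seen. The fits were tested on simulated counts. As alternatives, fits were repeated with no filter, DESeq2 1.42.0, TMM factors, the replicate number as a block, each library left out, other list bounds and each pair counted once. The D-copy fit and both fits of members against other Trav segments were added after the data were seen.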

Additional observations from a re-analysis of the deposited data

Results flagged for a closer look

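The 7 segments also appeared in the Trd tables, which were used in no comparison above. Trd, the T cell receptor delta locus, lies between the Trav and Traj segments, and some V segments can join to it. In replicate 2 the members held 0.772% of Trd counts in EACBE-/- (364 of 47158, 95% Wilson interval 0.697 to 0.855%), against 0.413% in EACBE+/+ (116 of 28093, 0.344 to 0.495%). The share was singled out because it appeared outside the Tcra tables and was above the level in EACBE+/+. There is 1 library per genotype at this depth, so the difference has no replicate check. In the replicate 1 tables, with totals of 5615 in EACBE-/- and 1744 in EACBE+/+, no member was listed. Read as a count of 0, that allows up to 0.0684% in EACBE-/- and 0.220% in EACBE+/+ (upper 95% Wilson limits). Both limits are below the replicate 2 share of the same genotype. Whether unlisted members had no counts or were left out of these tables was not given in the sources used here. Trav6-5 accounted for 237 counts in EACBE-/- and 82 in EACBE+/+, and Trav6-3 for 75 in EACBE-/- and 9 in EACBE+/+. Trdj1 was the J segment in 360 of the counts in EACBE-/- and 114 in EACBE+/+. Trav6d-4 had 0 counts in EACBE-/- and 1 in EACBE+/+.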

How the results depend on the processing

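Replicate 1 was the shallow library of each genotype and single pairs were thin there. Among Traj segments within the members' joins and pairs with copies summed, calls were fewer without a replicate 2 library. Fewer of these segments and pairs were tested there, and the cause was not tested. The 3′ share of the members' joins was lower in EACBE-/- under every alternative run. With the replicate number as a block, 1 member (Trav6d-5), 1 subgroup (Trav6-5), 15 pairs, 21 pairs with copies summed, 14 Traj segments and 7 members in the 3′ share were called. The labels do not say that a number marks a shared animal or batch. Deviations of the 106 Trav segments from their group means correlated at r = 0.849 between same-numbered libraries. With 2 libraries per group their deviations mirror each other, so both numbers give the same r, from 1 comparison. Depth also differed by number, so r cannot tell a shared animal or batch from depth. For pairs with copies summed the count was 0 in DESeq2, 10 without a filter and 0 to 6 with 1 library left out. For Traj segments within the members' joins it was 8 with TMM, 1 in DESeq2 and 0 to 8 with 1 library left out. For members with a changed 3′ share it was 0 whichever library was left out, and for Traj use against other Trav segments 9 to 20. The difference in family share turned with the library left out, from -0.278 to 1.17 points. That of the 3′ excess over other Trav segments was -2.79 points with each pair counted once and -0.863 to 1.79 with 1 library left out. Leaving out 1 library, some log2 changes turned sign. They ran between -0.57 and 0.73 for Trav6d-3 (also -0.08), -1.55 and 0.15 for Trav6-3, -1.71 and 0.56 for Trav6-4 (also 0.14), -0.25 and 0.50 for Trav6-5 (also -0.13), -1.15 and 0.45 for Trav6-3 with copies summed (also 0.18), -0.57 and 0.89 for Trav6-4 with copies summed (also -0.34), -0.11 and 0.73 for Traj31, and -0.58 and 0.054 for the 3′ share of Trav6-3. The cause of these turns was not tested. Of the other values of single segments, 163 kept direction and side of the threshold, 6 passed anew and 26 no longer passed.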

Other observations

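Trav6d-5 was not seen with Traj5 in any of the 4 Tcra libraries, in 0 of 1885 counts over all of them, which allows a share of up to 0.159%. Its copies were: Trav6n-5 had 15 of 1396 counts with Traj5 and Trav6-5 had 25 of 4458. Of these, 2 for Trav6n-5 and 5 for Trav6-5 were in EACBE-/- libraries. The pair was singled out after its values were seen and no test was run.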
